A study of Danio rerio with 5 samples.

Results

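The genes described here encode the mitochondrial respiratory chain and the ATP synthase, measured by RNA sequencing in zebrafish (Danio rerio) vagus motor neurons. They were chosen by symbol: all rows whose zebrafish symbol begins with nduf, sdha to sdhd, uqcr, cox4 to cox8, cyc1 or atp5, or with mt-nd, mt-co, mt-cyb or mt-atp. The rule found 118 of the 31953 gene rows, 105 of them nuclear and 13 encoded by mitochondrial DNA. The rule uses no measured value, although it was chosen with earlier results of these data known. It takes in assembly factors whose symbols begin with ndufaf or sdhaf and the inhibitors atp5if1a and atp5if1b, and it misses genes of the same complexes that carry other symbols.

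The respiratory chain sits in the inner mitochondrial membrane. Complex I takes electrons from NADH and complex II takes them from succinate. Both hand them to ubiquinone, from which complex III passes them to cytochrome c, and complex IV gives them to oxygen. Complexes I, III and IV pump protons as they work, and complex V, the ATP synthase, makes ATP from the returning protons. Complexes I, III, IV and V combine nuclear subunits, transcribed by RNA polymerase II, with subunits of mitochondrial DNA, which a separate mitochondrial polymerase copies into long transcripts that are cut into single RNAs. Complex II is wholly nuclear. Mature neurons draw most of their ATP from this pathway.

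Embryos of the Tg(isl1:Kaede) genotype, staged at 28 to 30 hours after fertilisation, supplied every library. Regulatory sequence of isl1, a gene of motor neurons and several other cell types, drives the photoconvertible protein Kaede in this line. Kaede was converted by light in either the front or the rear end of the vagus motor column, and the converted cells were picked by hand from trypsin-dissociated posterior hindbrain. The comparison sets 3 posterior libraries (B, G and R) against 2 anterior libraries (B and G) of 100 cells each. All groups share the transgene, light exposure and dissociation, and unconverted vagus neurons were not measured. The labels do not say whether libraries came from separate embryos or sessions, so p-values measure the spread between these libraries, which may be technical.

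Gene reads ranged from 14932562 in posterior B to 20088585 in anterior G, and made up 69.0% to 72.5% of the reads in each file. Posterior B detected the fewest genes, 10463 against 12241 to 13589 in the others, and had the largest share of reads that did not align uniquely, 20.3% against 16.5% to 18.6%. A floor of 3 counts was 0.149 to 0.201 counts scaled to a library total of 1000000 (CPM) and covers counting error only. ISL1, a motor neuron transcription factor, lay between 1805 and 2381 CPM in all 5 libraries. CHAT and SLC18A3, which make and load the transmitter of mature motor neurons, were low, at 0 to 36.1 and 11.2 to 139.5 CPM. The vagal and cranial motor neuron list summed to 7036 to 7823 CPM. Markers of blood summed to at most 0.0528 CPM, the muscle genes MYOG, TNNT3 and ckma and the crest genes FOXD3 and SOX10 were at 0 in all libraries, and kdrl of endothelium had 97.0 CPM in anterior B and at most 0.0634 elsewhere. Markers of glia summed to 96.7 to 408 CPM, of neural crest to 24.9 to 127 CPM and of the inner ear, through EYA1 alone, to 35.6 to 363 CPM. Those of muscle, skin, and notochord and floor plate summed to at most 26.3, 30.0 and 77.6 CPM. In bulk libraries, fewer cells of a type and less RNA per cell cannot be told apart.

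No respiratory chain gene differed between posterior and anterior neurons past the adjusted threshold. Below, values for the anterior pair stand in the order B and G, and those for the posterior set in the order B, G and R. Levels are CPM scaled with TMM factors, which correct library totals for composition. Differences are log2 fold changes, posterior minus anterior, with a standard error (SE). Of 118 members, 6 were at 0 in all libraries, sdhaf1 and COX4I2 did not pass the filter on low counts, and 110 were tested. In edgeR's quasi-likelihood test 0 of these 110 had an adjusted p under 0.05, and the smallest was 0.726. Among all 11827 tested genes the count was also 0 (0.0%), with a smallest adjusted p of 0.219. At an unadjusted edgeR p under 0.05, 2 members, MT-CO1 and cox6a1, were higher in posterior cells (1.82%) against 2.28% of all genes, and 1, NDUFAF8, was higher in anterior cells (0.909%) against 4.21% of all genes. NDUFAF8 was at 0 in the posterior set and passed the filter through the anterior libraries alone. DESeq2 called 0 members, against 2.45% of the 10213 genes to which it gave an adjusted p. Every posterior library lay above both anterior libraries in 15 members (13.6%) against 9.57% of all genes, and below both in 6 (5.45%) against 12.3%.

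The signs leaned towards posterior. Of the 97 tested nuclear genes, 62 were higher on the posterior side (63.9%), and the median log2 fold change was 0.16. The median SE of a single gene was 0.70. Of the 13 mitochondrial genes 10 were higher on the posterior side (76.9%), at a median of 0.29. Over all tested genes 47.9% had higher posterior values and the median was -0.05. By mean level, the nuclear medians were 0.30 under 30 CPM, 0.25 at 30 to 100 CPM and 0.15 at 100 to 300 CPM. Above 300 CPM, with 8 nuclear members, the median was -0.03. The medians of all tested genes in these classes were -0.11, -0.04, -0.01 and 0.04. Genes of a pathway are not independent, and these shares carry no test.

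**Figure D1:**
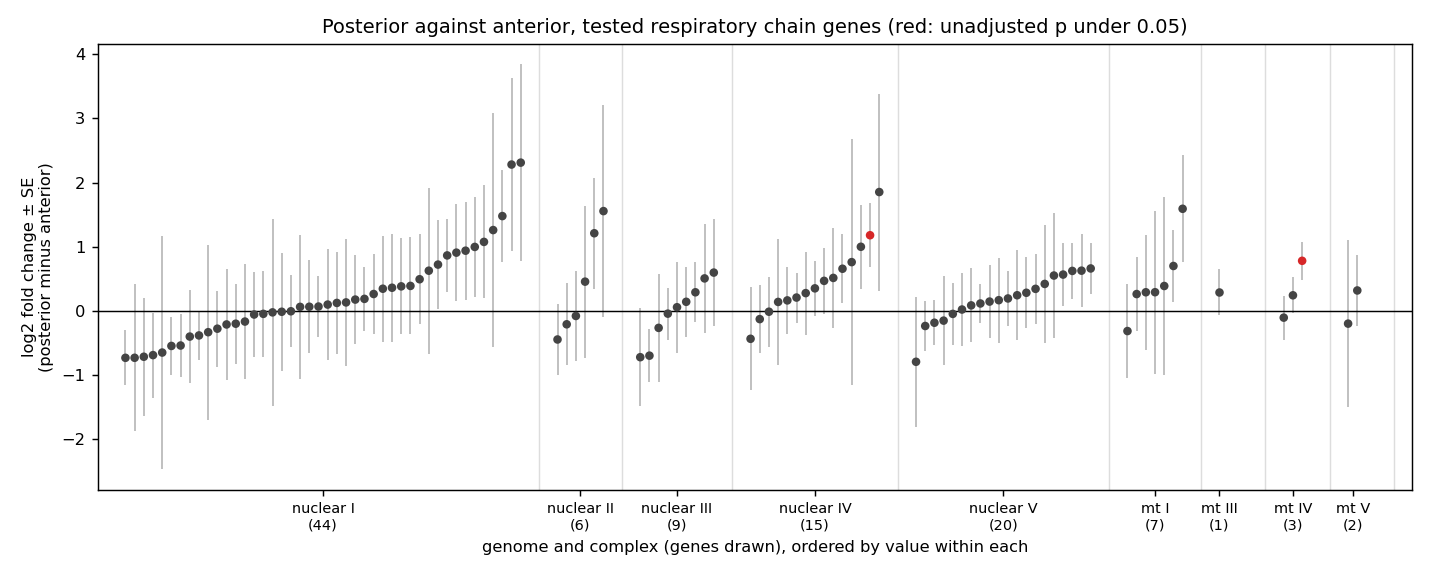
Log2 fold change (posterior minus anterior, y axis) with its SE for the tested members, ordered by value within each complex (x axis; mt marks genes of mitochondrial DNA). Most bars cross 0, the 2 red points are the members higher in posterior cells at an unadjusted edgeR p under 0.05, and 3 genes with a whole group at 0 counts are not drawn.

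The summed level of the nuclear genes differed little between the groups, except in posterior B. The 105 nuclear genes summed to 10493 and 11053 CPM in the anterior pair, and to 13202, 10706 and 10845 CPM in the posterior set. Posterior G and R lay between the anterior libraries, and posterior B lay above all others. The group means were 10773 ± 396 CPM (SD, n = 2) for anterior cells and 11585 ± 1403 CPM (SD, n = 3) for posterior cells. As a share of gene reads, nuclear members took 1.02% and 1.11% in the anterior libraries and 1.36%, 1.04% and 1.07% in the posterior set. The 13 mitochondrial genes summed to 4008 and 3881 CPM in the anterior pair, and to 6677, 4522 and 3939 CPM in the posterior set. Posterior R overlapped the anterior pair, and posterior B again stood highest. Their share of gene reads was 0.390% in both anterior libraries, and 0.689%, 0.440% and 0.389% in the posterior set. Mitochondrial transcripts were thus 0.351 to 0.382 of the nuclear members' reads in anterior cells, and 0.506, 0.422 and 0.363 in the posterior set.

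**Figure D2:**
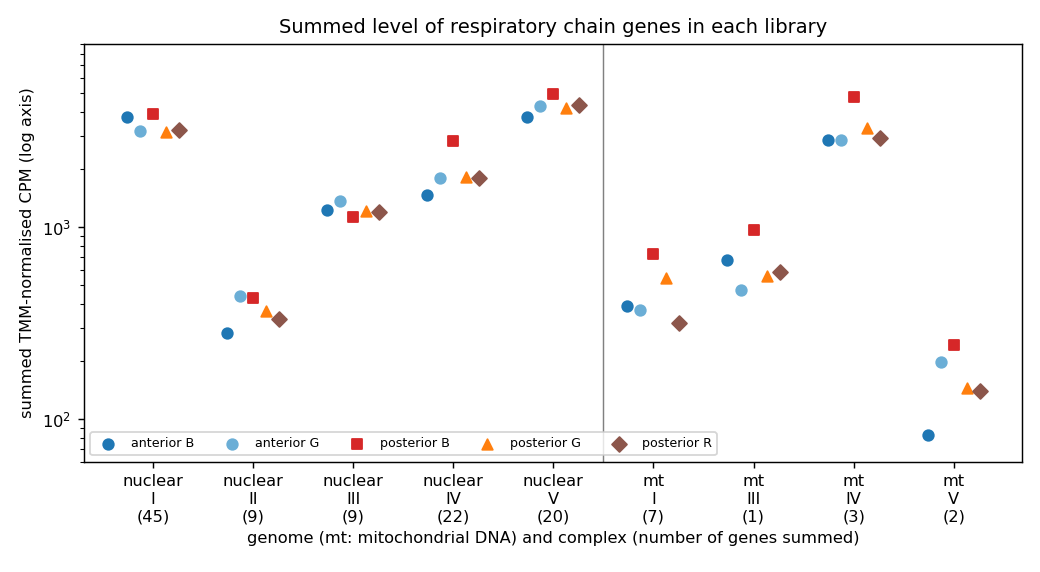
Summed CPM (y axis, log scale) of the members of each complex, nuclear genes left and mitochondrial (mt) genes right of the line, with 1 point per library. Posterior B is the highest point for nuclear complexes I, IV and V and for all 4 groups of mitochondrial genes, while it is not the highest for complex II, whose groups overlap, and is the lowest for complex III, whose posterior points all lie below both anterior ones.

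Complex I, the NADH dehydrogenase, was represented by 45 nuclear genes, all tested. Of these, 25 were higher and 20 lower in posterior cells, and their median log2 fold change was 0.07. They summed to 3749 and 3185 CPM in the anterior pair, and to 3879, 3119 and 3201 CPM in the posterior set. The 7 nuclear core subunits, which carry electrons from NADH to ubiquinone, had a median of 0.07. The 31 accessory subunits around them had a median of 0.10, and the 7 assembly factors a median of -0.02.

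NDUFS1, the largest iron-sulphur subunit, was at 152 and 163 CPM in the anterior pair, and at 11.9, 130.4 and 209 CPM in the posterior set. NDUFS8, another iron-sulphur subunit, went the other way in posterior B, at 200.2 CPM against 29.0 to 56.1 CPM in the other 4 libraries. NDUFV1, which binds NADH, ran from 8.57 CPM in posterior B to 135 CPM in posterior G. Core subunits of the same arm of the complex thus had opposite extremes in the same library.

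Among accessory subunits, NDUFB9 (ENSDARG00000041314), of the membrane arm, had 485 and 295 CPM in the anterior pair, and 301, 226 and 178 CPM in the posterior set. Anterior B was highest and the groups overlapped, with log2 fold change -0.73 ± 0.43 (SE; edgeR adjusted p 0.726), and -0.33 without anterior B. NDUFB5 (ENSDARG00000070824), also of the membrane arm, had the second-smallest p of complex I. It had 35.0 and 37.1 CPM in the anterior pair, and 129.7, 58.9 and 113 CPM in the posterior set. All posterior libraries were above both anterior ones, with log2 fold change 1.48 ± 0.72 (SE; edgeR p 0.0613, adjusted p 0.726). The same order held for the accessory subunits NDUFB4, NDUFB6, NDUFS5, ndufa11 and ndufc2, for the core subunit NDUFS7 and for the assembly factor NDUFAF2, with log2 fold changes from 0.18 for NDUFS5 to 2.28 for NDUFAF2. NDUFA1, NDUFB8 and NDUFAF8 had the opposite order. These genes were named after their values were seen, and edgeR adjusted p was 0.726 or more for each.

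NDUFAF8 (ENSDARG00000096749), an assembly factor known from human cells as a partner of NDUFAF5, had the smallest p of complex I. It had 4.72 and 6.38 CPM in the anterior pair and 0 counts in the posterior set. The gene passed the filter on low counts through the anterior libraries alone, which limits what its p can show. The anterior mean was at least 30.7-fold higher than the posterior floor of 3 counts per library (edgeR p 0.0363, adjusted p 0.726). Of 820 tested genes with an anterior mean of 3 to 10 CPM and over 3 counts in both anterior libraries, 43 (5.24%) were also at 0 in all posterior libraries. NDUFAF5 itself had 24.7 and 24.1 CPM in the anterior pair, and 0, 16.3 and 25.6 CPM in the posterior set.

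Complex II, the succinate dehydrogenase, had 9 members, of which 7 were tested, 4 higher and 3 lower in posterior cells. Their median log2 fold change was 0.46, with the 4 tested core genes at a median of -0.14 and the 3 tested assembly factors all positive. Its members summed to 282 and 439 CPM in the anterior pair, and to 426, 366 and 332 CPM in the posterior set, so that the posterior libraries lay between the anterior ones. SDHA (ENSDARG00000016721), the flavoprotein that oxidises succinate, had 72 and 172 CPM in the anterior pair, and 49.6, 157 and 114 CPM in the posterior set. SDHB (ENSDARG00000075768), the iron-sulphur subunit, had 105 and 137 CPM in the anterior pair, and 78.9, 80.0 and 107 CPM in the posterior set. Both overlapped between groups, with log2 fold changes of -0.21 ± 0.64 and -0.44 ± 0.56 (SE; edgeR adjusted p 0.971 and 0.90).

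SDHC (ENSDARG00000038608), a membrane anchor of complex II, was even in anterior cells and uneven in posterior ones. It had 32.4 and 32.5 CPM in the anterior pair, and 131, 76.1 and 23.9 CPM in the posterior set, with log2 fold change 1.21 ± 0.86 (SE; edgeR adjusted p 0.756), and 0.62 ± 0.86 without posterior B. SDHAF3 (ENSDARG00000036092), which helps SDHB receive its iron-sulphur clusters, had 0 counts in both anterior libraries and in posterior G, but 12.2 CPM in posterior B and 3.69 CPM in posterior R. The groups thus overlapped, and the gene passed the filter on low counts through posterior B and R alone, which limits what its p can show. The posterior mean was at least 32.6-fold higher than the anterior floor of 3 counts per library (edgeR p 0.138, adjusted p 0.728). Without posterior B it was at least 11.4-fold higher, and the gene did not pass the filter on low counts.

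Complex III, the cytochrome bc1 complex, was the only complex whose nuclear sum had a lower posterior than anterior range. Its 9 nuclear genes summed to 1232 and 1367 CPM in the anterior pair, and to 1129, 1221 and 1195 CPM in the posterior set. The means were 1300 ± 95.5 CPM (SD, n = 2) for anterior cells and 1182 ± 47.3 CPM (SD, n = 3) for posterior cells. Of the 9 genes, 5 still had a positive log2 fold change. Without posterior B, 2 of the 9 had a positive value, and the median was -0.11. UQCRC1 (ENSDARG00000052304), a large matrix-side core protein, had 492 and 444 CPM in the anterior pair, and 179, 295 and 388 CPM in the posterior set. All posterior values were below both anterior ones, with log2 fold change -0.70 ± 0.41 (SE; edgeR p 0.116, adjusted p 0.726). Without posterior B it was -0.42 ± 0.35. UQCRC1 averaged 468 CPM in anterior and 287 CPM in posterior cells, a larger drop than that of the complex sum. The lower posterior sum thus rested on this gene.

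The partner core gene uqcrc2a (ENSDARG00000014794) had the same order, with 73.3 and 66.6 CPM in the anterior pair, and 12.5, 49.4 and 62.2 CPM in the posterior set. Its log2 fold change was -0.72 ± 0.76 (SE; edgeR adjusted p 0.868), and -0.28 ± 0.62 without posterior B. Its duplicate UQCRC2 (ENSDARG00000071691) overlapped between the groups at 93.7 to 169 CPM. UQCRFS1 (ENSDARG00000007745), the Rieske iron-sulphur protein, was among the most even members. It had 264 and 269 CPM in the anterior pair, and 258, 287 and 232 CPM in the posterior set, with log2 fold change -0.04 ± 0.41 (SE; edgeR adjusted p 0.994).

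Complex II, with 7 tested genes, had the highest median log2 fold change of the nuclear complexes, 0.46. Among the 4 nuclear groups with 9 or more tested genes, complex IV, cytochrome c oxidase, leaned most to posterior. Of its 22 nuclear genes, counting the NDUFA4 family with this complex, 16 were tested, of which 13 were higher on the posterior side, and the median log2 fold change was 0.41. They summed to 1478 and 1806 CPM in the anterior pair, and to 2828, 1831 and 1799 CPM in the posterior set. Posterior R lay between the anterior libraries, posterior G was just above them, and posterior B was far above all. Posterior B was the highest library for 14 of the 16 tested genes, all but cox6b1 and NDUFA4L2. Of these 14, cox7a1 did not pass the filter on low counts without posterior B. Without posterior B the median over the 15 genes then tested was 0.24, with 9 higher in posterior cells.

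cox6a1 (ENSDARG00000022438), a regulatory subunit, had the smallest p of complex IV. It had 77.9 and 170.4 CPM in the anterior pair, and 343, 276 and 236 CPM in the posterior set. All posterior values lay above both anterior ones, with log2 fold change 1.18 ± 0.50 (SE; edgeR p 0.0364, adjusted p 0.726). Without posterior B it was 1.06 ± 0.52 (edgeR p 0.0784, adjusted p 0.666), while it was 0.74 without anterior B and 1.86 without anterior G, whose values were uneven. COX5B (ENSDARG00000015978), a zinc-binding subunit on the matrix side, had 372 and 415 CPM in the anterior pair, and 634, 388 and 349 CPM in the posterior set, with log2 fold change 0.21 ± 0.39 (SE; edgeR adjusted p 0.943). COX7A2 (ENSDARG00000053217) had 242 and 181 CPM in the anterior pair, and 321, 239.7 and 247 CPM in the posterior set, with log2 fold change 0.35 ± 0.43 (SE; edgeR adjusted p 0.894). For both, posterior B was highest and the other 4 libraries overlapped.

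Several subunits of complex IV have tissue forms. Of these, COX4I2, cox7a1, cox8b and NDUFA4L2, known in mammals from lung, muscle or hypoxic cells, were at most 5.71 CPM in any library. The general form COX4I1 ran from 35.2 CPM in anterior B to 186 CPM in posterior B, whereas COX4I2, a lung form in mammals, had 5.06 CPM in posterior B and 0 counts elsewhere. cox7a1 (ENSDARG00000069464), a heart and muscle form in mammals, had 0 counts in both anterior libraries and in posterior G, and 5.71 and 5.33 CPM in posterior B and R. The groups of this gene overlapped, and it passed the filter on low counts through posterior B and R alone, which limits what its p can show. Its posterior mean was at least 22.6-fold higher than the anterior floor of 3 counts per library (edgeR p 0.121, adjusted p 0.726). Without posterior B it was at least 16.4-fold higher, and the gene did not pass the filter on low counts. cox8b, a muscle form in mammals, was at 0 in all libraries, while cox8a ran from 59.8 to 95.7 CPM. NDUFA4L2, known from hypoxic mammalian cells, was at 0.413 to 1.37 CPM, and NDUFA4 was at 91.5 to 187 CPM. The paralogues cox6b1 and cox6b2 were both detected in every library, at 28.8 to 69.4 and 87.7 to 186 CPM, with cox6b2 the higher in each. Low levels were thus not shared by all paralogues of this complex. Second rows of COX5B, COX6A1 and SDHD, and the rows of cox4i1l and ndufa4l2b, were at 0 in all libraries.

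**Figure D3:**
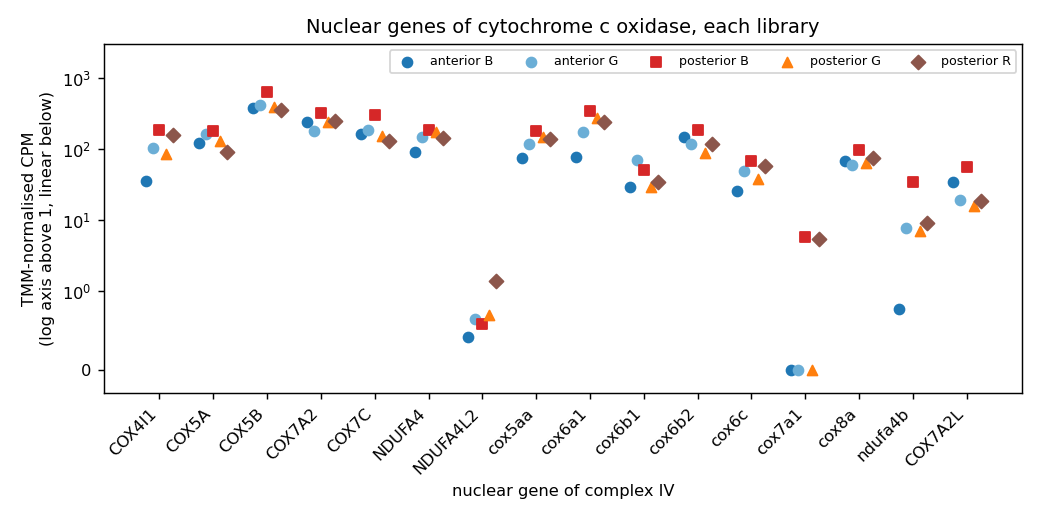
CPM of each of the 16 tested nuclear complex IV genes (x axis) in the 5 libraries (y axis, log scale above 1 and linear below). The red squares of posterior B are the highest points for 14 genes, and cox6a1 and cox5aa are the genes in which all 3 posterior points lie above both anterior ones.

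Complex V, the ATP synthase, held some of the highest counts among the members. Its 20 nuclear genes were all tested, 15 were higher in posterior cells, and the median log2 fold change was 0.18. They summed to 3753 and 4255 CPM in the anterior pair, and to 4941, 4169 and 4319 CPM in the posterior set, with posterior G inside the anterior range. ATP5F1B (ENSDARG00000070083), the catalytic beta subunit, had 658 and 1001 CPM in the anterior pair, and 875, 875 and 951 CPM in the posterior set. Its log2 fold change was 0.12 ± 0.30 (SE; edgeR adjusted p 0.964). ATP5F1C (ENSDARG00000045514), the gamma subunit of the rotating stalk, had 885 and 490.1 CPM in the anterior pair, and 684, 500.5 and 628 CPM in the posterior set, with log2 fold change -0.18 ± 0.35 (SE; edgeR adjusted p 0.947). For both, the anterior pair enclosed all posterior values. The alpha subunit ATP5F1A was the least even of these subunits, at 58.0 and 446 CPM in the anterior pair.

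The membrane ring of subunit c, which turns as protons pass, is encoded by several genes with near-identical proteins, so that their separate counts are uncertain. ATP5MC3 (ENSDARG00000017775) had 265 and 224 CPM in the anterior pair, and 475, 353 and 331 CPM in the posterior set. All posterior values lay above both anterior ones, with log2 fold change 0.66 ± 0.40 (SE; edgeR p 0.125, adjusted p 0.728). atp5mc1 (ENSDARG00000056008) had 156 and 305 CPM in the anterior pair, and 397, 382 and 295 CPM in the posterior set, log2 fold change 0.62 ± 0.44 (SE; edgeR adjusted p 0.755), with the groups overlapping. It was 0.23 without anterior B and 1.19 without anterior G. The paralogue atp5mc3b overlapped as well, at 202 to 321 CPM, with a log2 fold change of 0.20. ATP5PF and ATP5F1D, of the stalks, were also higher in every posterior library and ATP5PO, the stalk protein named for oligomycin sensitivity, lower, with log2 fold changes of 0.63, 0.57 and -0.23. The inhibitors atp5if1a and atp5if1b, which bind the enzyme when the proton gradient collapses, had negative log2 fold changes of -0.15 and -0.79 with overlapping groups.

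The 13 genes of mitochondrial DNA were detected in all libraries, and 1 of them, MT-CO1, had an unadjusted edgeR p under 0.05. MT-CO1 (ENSDARG00000063905), the subunit of complex IV that holds the oxygen-reducing site, had 736 and 1012 CPM in the anterior pair, and 1918, 1407 and 1189.5 CPM in the posterior set. Every posterior library lay above both anterior ones, with means of 874 ± 195 CPM (SD, n = 2) and 1505 ± 374 CPM (SD, n = 3). The log2 fold change was 0.78 ± 0.30 (SE; edgeR p 0.0227, adjusted p 0.726), and 0.60 ± 0.30 without posterior B (edgeR p 0.0829, adjusted p 0.678). MT-CO2 (ENSDARG00000063908), which receives electrons from cytochrome c, had 1203 and 1094 CPM in the anterior pair, and 1739, 1258 and 1085 CPM in the posterior set. MT-CO3 (ENSDARG00000063912) had 920.2 and 739 CPM in the anterior pair, and 1086, 607 and 624 CPM in the posterior set. Posterior B was highest for both, and the other 4 libraries overlapped for MT-CO2. Log2 fold changes were 0.24 ± 0.28 for MT-CO2 and -0.10 ± 0.34 for MT-CO3 (SE; edgeR adjusted p 0.88 and 0.974).

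MT-CYB (ENSDARG00000063924), the cytochrome b of complex III, had 675 and 469 CPM in the anterior pair, and 968, 559 and 583 CPM in the posterior set, with log2 fold change 0.30 ± 0.36 (SE; edgeR adjusted p 0.892). Of the complex I subunits, which form the proton-pumping membrane arm, MT-ND2 (ENSDARG00000063899) had 49.7 and 8.31 CPM in the anterior pair, and 99.7, 90.7 and 62.3 CPM in the posterior set. All posterior values lay above both anterior ones, and the log2 fold change, 1.59 ± 0.84 (SE; edgeR p 0.081, adjusted p 0.726), was taken against an uneven pair in which anterior G was lowest of all. It was 3.32 without anterior B and 0.74 without anterior G. MT-ND1 (ENSDARG00000063895) had 91.4 and 66.7 CPM in the anterior pair, and 120.4, 41.0 and 32.2 CPM in the posterior set, so that posterior cells held both its highest and its lowest values. Its log2 fold change was -0.31 ± 0.73 (SE; edgeR adjusted p 0.956).

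MT-ND5 (ENSDARG00000063921) had 129 and 93.4 CPM in the anterior pair, and 257, 178 and 108 CPM in the posterior set, with log2 fold change 0.70 ± 0.56 (SE; edgeR adjusted p 0.791). MT-ND4 (ENSDARG00000063917) had 87.0 and 162 CPM in the anterior pair, and 188, 191 and 78.2 CPM in the posterior set, with a log2 fold change of 0.26 ± 0.58. Posterior R was within or below the anterior range for both genes. MT-ND6 (ENSDARG00000063922), read from the opposite strand to the other subunits, ran from 23.1 CPM in posterior R to 48.1 CPM in posterior B, with a log2 fold change of 0.29 ± 0.90. MT-ND3 (ENSDARG00000063914) and mt-nd4l (ENSDARG00000063916) were low, at 4.69 to 9.97 and 2.30 to 9.70 CPM, with log2 fold changes of 0.29 ± 1.27 and 0.39 ± 1.38.

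MT-ATP6 (ENSDARG00000063911), the proton channel subunit of complex V, had 80.8 and 191 CPM in the anterior pair, and 240.0, 140.4 and 136 CPM in the posterior set, with log2 fold change 0.32 ± 0.56 (SE; edgeR adjusted p 0.939). mt-atp8 (ENSDARG00000063910) was at 2.24 to 7.28 CPM in all libraries, with a log2 fold change of -0.20 ± 1.30. In the RefSeq annotation of the GRCz12tu assembly, mt-atp8 overlaps mt-atp6, mt-atp6 overlaps mt-co3, mt-nd4l overlaps mt-nd4 and mt-nd5 overlaps mt-nd6. Reads in such overlaps may be counted for neither gene, and strand use is not given in the sources used here, so the counts of these neighbours are uncertain. Levels of different genes are not compared per length here.

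**Figure D4:**
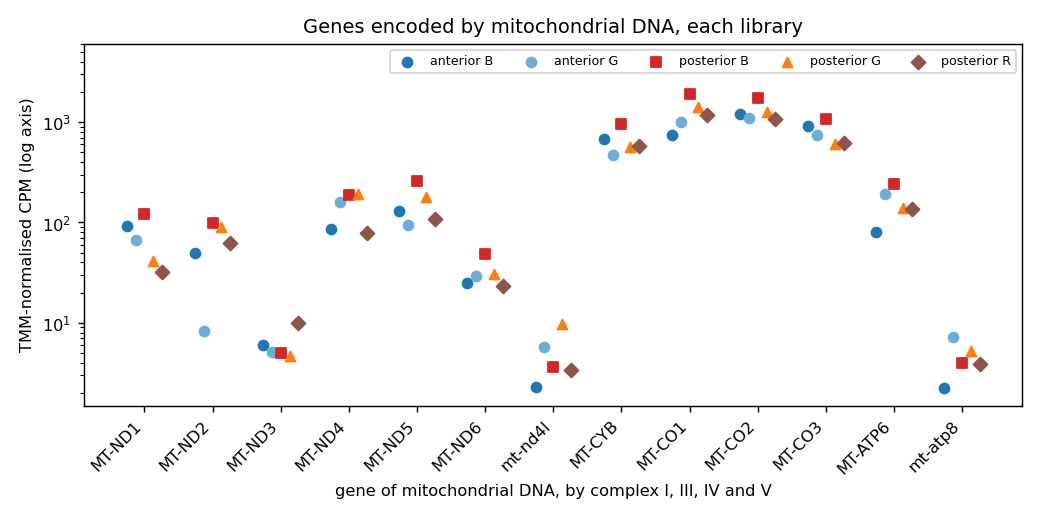
CPM (y axis, log scale) of the 13 genes of mitochondrial DNA (x axis), with 1 point per library. Posterior B is the highest point for 9 genes, and MT-ND2 and MT-CO1 are the genes whose posterior points all lie above both anterior points.

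Much of the lean towards posterior rested on posterior B. It was the highest library for 55 of the 97 tested nuclear members (56.7%) and 9 of the 13 mitochondrial ones (69.2%), against 21.2% of all tested genes. By mean level, it was highest for 12 of 22 nuclear members under 30 CPM and 24 of 36 at 30 to 100 CPM. It was highest for 16 of 31 at 100 to 300 CPM and 3 of 8 above. The shares of all tested genes in these classes were 19.4%, 24.0%, 23.4% and 21.9%. Its nuclear members lay at a median of 0.54 above the mean of the other 4 libraries on the log2(CPM + 1) scale, and its mitochondrial members at 0.76. Over all tested genes the same library lay at -0.61, the lowest of the 5, a median not matched to the members for level. In the other libraries the medians of the nuclear members ran from -0.34 in anterior B to -0.10 in posterior R.

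The complexes stood at different levels in posterior B. The 7 tested complex II genes, assembly factors included, had the highest median, 0.99 above the other libraries. Among them the assembly factors SDHAF2, SDHAF3 and SDHAF4 stood at 1.98, 2.78 and 0.99. SDHAF3 did not pass the filter on low counts without posterior B, so its high value there is not separate from its being tested. The core genes split, with SDHC and SDHD at 1.65 and 0.77, and SDHA and SDHB at -1.36 and -0.44. The 7 complex I assembly factors had the lowest median, -1.92, which was also their median in posterior G. In both libraries this was the value of NDUFAF8, at 0 counts in the posterior set. Their sums went the other way, at 70.9 and 75.2 CPM in the anterior pair, and 89.7, 106 and 123 CPM in the posterior set. The 16 complex IV genes had a median of 0.66, the 31 complex I accessory genes 0.62 and the 20 complex V genes 0.52. The 7 complex I core genes had -0.09 and the 9 complex III genes 0.11. Of the 97 nuclear genes, 20 were over 2-fold higher than the mean of the others in posterior B and 11 were over 2-fold lower, against 14.2% and 43.6% of all tested genes. These shares are not matched for level. Under 30 CPM lay 6789 of the 11827 tested genes but 22 of the 97 nuclear members, and low genes varied more. The dissociation stress list, of which 10 of 23 tested genes had higher posterior values (median -0.25), was lowest in posterior B, with a sum of 6878 CPM against 9046 to 10866 CPM elsewhere. Of the 11 tested motor neuron genes 1, PHOX2A, was highest there, at 1466 CPM against 84.9 to 310.2 CPM, and 3 were lowest there. The part of these lists in the result was not tested, and nor was that of the fewer genes detected or of the reads that did not align uniquely.

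Without posterior B, the median log2 fold change was 0.10 for nuclear members and 0.06 for mitochondrial members, with 50 of 95 and 9 of 13 higher in posterior cells. The median over all tested genes was then 0.01. Without anterior G the member medians were 0.32 and 0.47, but the median over all tested genes was 0.45, so that the nuclear members then lay below it. Without anterior B they were 0.22 and 0.20, beside 0.16 for all genes. Without posterior G they were 0.27 and 0.36, and without posterior R 0.26 and 0.49, with all genes at -0.08 and -0.10. The mean summed level of the nuclear genes in posterior G and R was 10776 ± 98.3 CPM (SD, n = 2), beside 10773 ± 396 CPM in the anterior pair. For the mitochondrial genes it was 4231 ± 413 CPM (SD, n = 2), beside 3944 ± 89.2 CPM in the anterior pair.

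**Figure D5:**
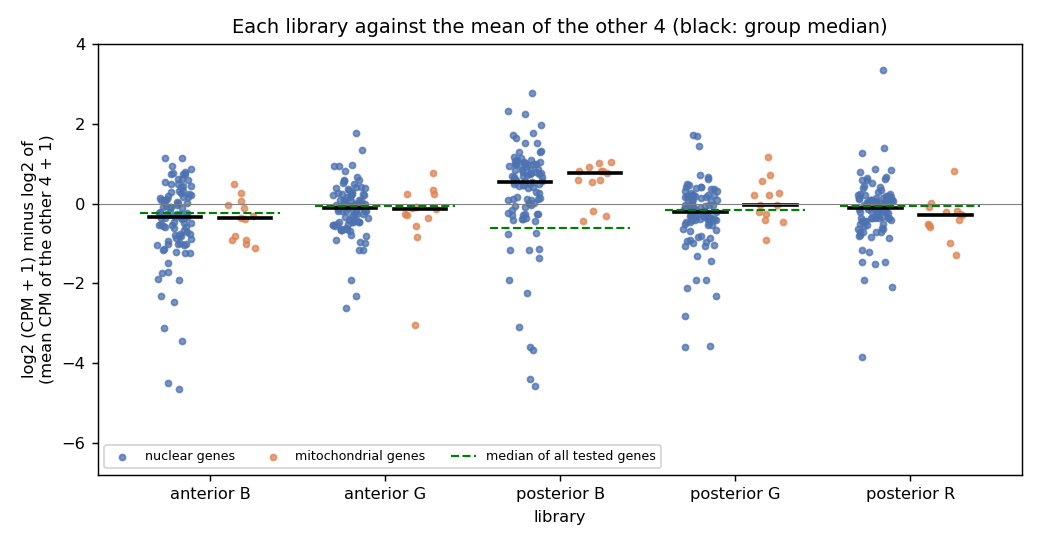
Level of each tested member in each library (x axis) as log2(CPM + 1) minus log2 of the mean CPM of the other 4 libraries + 1 (y axis), with black bars at the medians of nuclear and mitochondrial genes and a dashed line at the median of all tested genes. In posterior B the member medians of 0.54 and 0.76 lie above the dashed line at -0.61, and in the other libraries they lie close to it.

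The levels of the members spread less between libraries than those of the median gene. The range over the 5 libraries on the log2(CPM + 1) scale had a median of 1.29 for tested nuclear members against 3.14 for all tested genes. Low genes varied more. Within classes of mean level the medians were 2.68 against 4.08 under 30 CPM, 1.44 against 2.45 at 30 to 100 CPM, 1.05 against 1.47 at 100 to 300 CPM, and 0.86 against 1.08 above. The order held in each class, the last with 8 nuclear members. The median of the 13 mitochondrial genes was 1.35.

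Other genes of mitochondrial energy metabolism leaned in either direction. Of the 8 lists of metabolic and mitochondrial genes, none held a gene with an edgeR adjusted p under 0.05, and the smallest adjusted p was 0.726 in each. DESeq2 called 1 of 12 tested ubiquinone synthesis genes, 1 of 14 regulators of mitochondrial genes and 1 of 73 mitochondrial ribosome genes. It called 0 in the other lists, against 2.45% of all genes with a DESeq2 adjusted p. Of 5 tested adenine nucleotide carriers and porins, 3 were higher on the posterior side, and the median log2 fold change was 0.27. SLC25A5, which exchanges ATP for ADP, had 791 and 1931 CPM in the anterior pair, and 2154, 1998 and 1975 CPM in the posterior set, with anterior B alone low. VDAC2, a porin of the outer membrane, had 101 and 164 CPM in the anterior pair, and 428, 206 and 216 CPM in the posterior set, again highest in posterior B. Their log2 fold changes were 0.58 ± 0.33 and 1.08 ± 0.52 (SE; edgeR p 0.10 and 0.0604).

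The citric acid cycle list leaned the other way, with 5 of 18 tested genes higher on the posterior side and a median of -0.23. Its gene pdha1a, of pyruvate dehydrogenase, had 393 and 339.7 CPM in the anterior pair, and 184, 295 and 162 CPM in the posterior set. All posterior values lay below both anterior ones, with log2 fold change -0.78 ± 0.43 (SE; edgeR p 0.0925, adjusted p 0.726). In glycolysis and lactate metabolism 7 of 22 tested genes were higher on the posterior side, at a median of -0.35. The glucose transporter slc2a3a had 48.1 and 53.7 CPM in the anterior pair, and 0, 11.3 and 3.22 CPM in the posterior set (log2 fold change -3.42 ± 1.15, SE; edgeR p 0.00912, adjusted p 0.726). GPI, which isomerises glucose 6-phosphate, had 166 and 136 CPM in the anterior pair, and 76.1, 28.3 and 51.1 CPM in the posterior set (edgeR p 0.0278, adjusted p 0.726). At an unadjusted edgeR p under 0.05, 1 of these 22 genes was higher on the posterior side and 3 on the anterior side. Among all tested genes the shares were 2.28% and 4.21%.

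Among genes that serve the chain, electron carriers had 2 of 6 tested genes higher on the posterior side and a median of -0.54. In that list DHODH, which feeds ubiquinone from pyrimidine synthesis, had 60.5 and 28.1 CPM in the anterior pair, and 0.0649, 7.23 and 0.0528 CPM in the posterior set (edgeR p 0.0114, adjusted p 0.726), and SUOX, the sulphite oxidase, was also lower in every posterior library (edgeR p 0.0535). Other complex assembly factors had 16 of 35 higher and a median of -0.12. There the copper chaperone cox17 had 17.7 and 20.4 CPM in the anterior and 0, 1.84 and 3.11 CPM in the posterior libraries (edgeR p 0.0441), and ACAD9, of complex I assembly, had a p of 0.0529 with overlapping groups. Ubiquinone synthesis had 5 of 12 higher and a median of -0.30. Its COQ9 had 0 counts in both anterior libraries and 7.92, 18.6 and 6.44 CPM in the posterior ones (edgeR p 0.0598). COQ9 thus passed the filter on low counts through posterior libraries alone. PDSS1, which builds the side chain, had the opposite order (edgeR p 0.0616).

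Regulators of mitochondrial genes had 3 of 14 tested genes higher on the posterior side and a median of -0.39. POLRMT, the mitochondrial RNA polymerase, had 0 counts in both anterior libraries and in posterior B, and 73.5 and 21.6 CPM in posterior G and R (edgeR p 0.0434). This gene passed the filter on low counts through posterior G and R alone. The transcription factor tfb2m had 64.9 and 43.9 CPM in the anterior pair and 0, 1.77 and 24.9 CPM in the posterior set (edgeR p 0.0479). Of the 73 genes of the mitochondrial ribosome 35 were higher on the posterior side, at a median of -0.07. Posterior B was the highest library for 19 of them, near the share in all genes and unlike the members. Their smallest p values were those of mrps18b and MRPL27 (edgeR p 0.0117 and 0.0642, adjusted p 0.726 for both), both lower in every anterior than in any posterior library. mrps18b had 0.0590 and 0 CPM in the anterior pair, and 45.9, 31.4 and 32.5 CPM in the posterior set. It thus passed the filter on low counts through posterior libraries alone. MRPL27 had 0.0590 and 6.53 CPM in the anterior pair, and 81.2, 11.7 and 13.8 CPM in the posterior set.

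The marker list of neurons in general leaned to anterior in signs and sums. That of progenitor and cycling genes leaned to posterior in signs, but its sums overlapped between the groups. All but 1 of 9 genes of neurons in general were lower in posterior cells, and their median log2 fold change was -1.10. Of the 9, 4 were lower at an unadjusted edgeR p under 0.05 (smallest adjusted p 0.526), against 4.21% of all tested genes. Their sums were 5799 and 8472 CPM in the anterior pair, and 4960, 4948 and 4507 CPM in the posterior set. Anterior G was the highest library for 8 of the 9 genes and anterior B for 0. The sum in anterior B was nearer to the posterior sums than to that in anterior G. Of the 10 tested progenitor and cycling genes, 7 were higher on the posterior side, at a median of 0.71. The list summed to 7188 and 4598 CPM in the anterior pair, and to 5263, 6904 and 6722 CPM in the posterior set. Anterior B had the highest of these sums. The part of these differences in the members' values was not tested.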

How the data were processed

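Each library came as a deposited table of raw read counts by Ensembl identifier, not normalised by the authors. Per the labels' protocols, cDNA was made with SMART-Seq v4 and sequenced as Nextera XT libraries. The submitters' processing notes name bcl2fastq 1.8.4, TopHat2 2.1.0, HTSeq 0.6.1 and the build GRCz10. Annotation release and strand use are not given in the sources used here. Lines for reads given to no gene (no feature 9.17% to 9.97%, ambiguous 0.819% to 1.03%, not unique 16.5% to 20.3%) were left out of totals and tests, so reads shared by near-identical genes are not counted.

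Symbols came from a table pairing identifiers with names (26121 of 31953 had one). The rule matched 122 of its identifiers, of which 4 were not among the rows analysed here.

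Counts were tested with edgeR 4.0.16 in R 4.3.3 (TMM factors, filterByExpr with minimum count 10 and minimum total 15, glmQLFit with legacy off, glmQLFTest), two-sided, with Benjamini-Hochberg adjustment over 11827 genes and a threshold of 0.05. A gene at or near 0 counts in a whole group passed filterByExpr through the other group alone, which limits what its p can show. For genes at 0 counts in both anterior libraries, no share over all genes was computed. The SE is the log2 fold change divided by the square root of F. Scripts were tested on simulated data. Precision is set mainly by the spread between libraries.

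The genes named with full statistics are all mitochondrial members and, per nuclear complex, the 2 with the highest mean CPM and the 2 with the smallest p, and the 2 with the smallest p of each pathway list. Some genes under this rule are not reported here. Other members are named from their values. The lists were electron carriers, complex assembly, ubiquinone synthesis, adenine nucleotide carriers, regulators of mitochondrial genes, citric acid cycle, glycolysis and lactate, mitochondrial ribosome, dissociation stress and cell type markers. Members and lists were chosen with earlier results of these data known. Further libraries were not analysed here. No sequences are printed. Alternatives were DESeq2 1.42.0, limma-voom (limma 3.58.1), RLE size factors, library totals only, other filters, mitochondrial genes left out, assembly factors and inhibitors left out, the replicate letter as a block, each library left out, and the legacy form of glmQLFit, chosen after seeing the data.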

Additional observations from a re-analysis of the deposited data

How the results depend on the processing

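No member had an adjusted p under 0.05 in any alternative run. Over all genes the count of 0 became 250 with DESeq2 and 0 to 7 as each library was left out (1 without anterior B, 7 without anterior G), and the unadjusted count ran from 179 of 2120 genes at a mean of at least 100 CPM to 1049 with DESeq2, against 768. The median log2 fold change stayed positive for nuclear members, from 0.10 without posterior B to 0.32 without anterior G, and for mitochondrial members, from 0.06 without posterior B to 0.53 with the replicate block. The median of all genes itself moved to 0.16 without anterior B, 0.45 without anterior G and -0.16 with limma-voom. Between anterior and posterior B the deviations correlated at -0.0011, and between anterior and posterior G at 0.010. With only 2 anterior libraries these values are not separate checks, so they cannot exclude pairing. The main test did not pair libraries by letter. With the letter as a replicate block over 4 libraries, and for the nuclear counts also in those libraries without it, 0 nuclear members in either direction and 0 mitochondrial members in the block had an unadjusted p under 0.05, and all genes counted 211 with the block and 524 in those libraries without it. The nuclear count higher in posterior (1) was 3 with DESeq2 and 0 to 3 without a library. The nuclear count higher in anterior (1) was 0 with no filter and at mean CPM of at least 5 or 100, and 0 to 1 without a library. The mitochondrial count (1) was 0 to 1 without a library. Of 429 refits of the 31 genes named by rule and reported, with fits to the same libraries counted once, 21 reversed sign, in 13 genes. In the block these were MT-ND3 (-0.17), MT-CO3 (0.0040) and UQCRFS1 (0.058), in the same libraries without it MT-ND1 (0.052), MT-ND3 (-0.17), MT-CO3 (0.048) and UQCRFS1 (0.060), and with limma-voom mt-atp8 (0.055). As libraries were left out, the log2 fold change ran from -1.08 to 0.052 for MT-ND1, -0.17 to 0.49 for MT-ND3, -0.11 to 0.78 for MT-ND4, -0.25 to 1.23 for mt-nd4l, -0.0079 to 0.55 for MT-ND6, -0.40 to 0.059 for MT-CO3, -0.16 to 1.07 for MT-ATP6, -0.75 to 0.94 for mt-atp8, -0.68 to 0.57 for SDHA, -0.12 to 0.060 for UQCRFS1, -0.066 to 0.39 for COX5B, -0.15 to 0.44 for ATP5F1B and -0.56 to 0.30 for ATP5F1C. The cause was not tested.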
